A study of Mus musculus with 11 samples.

Results

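The 43 genes described here are interferon-stimulated genes and the 4 chains of the interferon receptors. They were chosen by name as a fixed list, with earlier results of these data known. All 43 were matched by gene identifier among the 52550 genes of the table, and 36 of them were among the 14419 genes that passed a filter on low counts set by the rule in the study's methods. The mRNA was sequenced from keratinocytes (KCs) and dendritic epidermal T cells (DETCs), the γδ T cells that live among the KCs of mouse epidermis. Cells came from the flank skin of 8-week-old huLangerin-DTA mice, here LC-/-, and of wild-type (WT) littermates. In LC-/- mice the human langerin promoter drives the diphtheria toxin A subunit, so Langerhans cells (LCs) are missing from birth. KCs were sorted as CD45- and DETCs as CD45+ cells, both negative for MHC class II, langerin and c-kit, and no γδ T cell receptor marker entered the DETC gate. There were 3 WT and 3 LC-/- KC libraries and 3 WT and 2 LC-/- DETC libraries. WT libraries are written W1 to W3 and LC-/- libraries L1 to L3 by the numbers in their labels, and L1 has no DETC library. Whether equal numbers in the 2 populations mean the same mouse is not stated in the labels.

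Type I interferons bind the receptor built of IFNAR1 and IFNAR2, and interferon gamma binds the receptor built of IFNGR1 and IFNGR2. Janus kinases on these receptors phosphorylate STAT proteins. Complexes of STAT proteins with IRF9 act on interferon-stimulated response elements, which type I interferon uses most, and STAT dimers act on gamma-activated sites, which interferon gamma uses. T cells are a known source of interferon gamma, and KCs are known to respond to both kinds of interferon.

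The promoters of several members carry the letters these factors are known to bind, and some of these are shown here. The shown members were picked by hand and only stretches with a match were kept. A match in each shown stretch was therefore fixed in advance. Searches for 2 patterns ran on both strands in the 250 bases before each RefSeq start: GAAANNGAA, a repeat found in interferon response elements, and TTCNNNGAA, the core of a gamma-activated site, which reads the same on both strands. The patterns can overlap, as they do before Bst2. Promoter windows were found for 33 of the 43 members, all but Usp18, Oas2, Mx1, Mx2, Rtp4, Gbp4, Gbp6, Iigp1, Parp9 and Parp14. GAAANNGAA stood in 16 of these 33 genes, against 8.18% of all 27025 genes with a window, and TTCNNNGAA in 10, against 8.13%. All 6 GBP and IRG genes with a window held GAAANNGAA, and none of the 4 receptor chains did. The stretches are from RefSeq, build GRCm38.p6, in the direction of transcription, up to 150 bases that end at the start or at the edge of the GENCODE gene. Capitals mark every match.
Isg15 (chr4:156200819-156200968, minus strand), which encodes the ubiquitin-like protein ISG15: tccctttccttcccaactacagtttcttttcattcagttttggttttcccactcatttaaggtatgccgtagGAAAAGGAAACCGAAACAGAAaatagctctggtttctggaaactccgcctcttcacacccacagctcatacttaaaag
Bst2 (chr8:71537473-71537622, minus strand), which encodes tetherin: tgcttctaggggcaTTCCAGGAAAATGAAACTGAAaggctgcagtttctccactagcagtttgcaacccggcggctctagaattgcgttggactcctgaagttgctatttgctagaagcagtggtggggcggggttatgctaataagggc
Oas3 (chr5:120777662-120777809, minus strand), a 2'-5' oligoadenylate synthetase: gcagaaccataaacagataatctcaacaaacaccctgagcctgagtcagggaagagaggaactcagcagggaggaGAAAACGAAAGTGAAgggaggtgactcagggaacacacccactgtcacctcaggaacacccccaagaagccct
Igtp (chr11:58199406-58199555, plus strand), an immunity-related GTPase: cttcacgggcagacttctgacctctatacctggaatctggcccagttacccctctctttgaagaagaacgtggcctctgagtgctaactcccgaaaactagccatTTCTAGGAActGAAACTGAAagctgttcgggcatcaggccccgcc
Gbp7 (chr3:142530186-142530335, plus strand), a guanylate-binding protein: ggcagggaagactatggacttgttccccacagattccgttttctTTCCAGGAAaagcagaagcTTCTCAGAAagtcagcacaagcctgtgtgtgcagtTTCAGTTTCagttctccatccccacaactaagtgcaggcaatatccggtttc
Irf1 (chr11:53769864-53770013, plus strand), a transcription factor of the interferon gamma response: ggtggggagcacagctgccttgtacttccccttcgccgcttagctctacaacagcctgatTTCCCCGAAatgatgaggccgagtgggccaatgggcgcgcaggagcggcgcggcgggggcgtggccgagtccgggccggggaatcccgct
Isg15 held 3 overlapping copies of GAAANNGAA, and Irf1 held only TTCNNNGAA. In WT mice, 8 of the 17 members with a window that were higher in DETCs held GAAANNGAA, as did 2 of the 3 that were lower (Trim25 and Ifih1). Over all tested genes the shares were 8.30% of those higher and 8.21% of those lower.

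Values are normalized counts, which are reads divided by a size factor for each library, and 13491075 to 19750440 reads per library fell on genes. Cd207, the langerin gene, had normalized counts of 6.15, 26.9 and 15.6 in WT KCs and 0 reads in all 3 LC-/- KC libraries. WT DETC libraries also held Cd207, at 21.8 (W1), 16.5 (W2) and 46.7 (W3). Of the LC-/- DETC libraries, L2 had 0 reads of Cd207 and L3 had 4. The sum of 10 LC markers ranged from 1620 to 1924 across WT DETC libraries, beside 1148 for L2 and 1244 for L3. Not every marker fell: Itgax ranged from 424 to 515 across WT DETC libraries, with L2 at 487 and L3 at 385. The part of LC RNA in the members' values was not tested. The 15 DETC markers were at a median of 0.00701% of their WT DETC level in WT KCs, and none was above 0.0739%. In the other direction, the 15 KC markers stood in WT DETC libraries at a median of 16.3% of their WT KC level, from 9.32% (Krt1) to 171% (Lor), and at a median of 20.8% in LC-/- mice. The DETC libraries also held transcripts of αβ T cells: Cd8a was at 786, 2092 and 1716 normalized counts in WT and 378 and 2825 in LC-/- mice. Cd8a had 1 read in the KC libraries together. In sorted populations such as these, fewer cells of a type and less RNA per cell cannot be told apart.

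At baseline most members were more abundant in DETCs than in KCs. In WT mice, limma on log2 of the normalized count plus 1 called 21 of the 36 tested members higher in DETCs and 5 lower, at an adjusted p under 0.05 and a change of at least 2-fold. Of all 14419 genes 24.1% were called higher and 20.6% lower by the same rule. The median log2 difference, DETC minus KC, was 1.54 over the members and 0.07 over all genes. Of the 36 members, 10 passed the filter through a single population, which favours a difference between the populations. These 10 members were Irf8, Ifit2, Oas3, Mx1, Mx2, Rtp4, Gbp3, Gbp4, Gbp5 and Gbp6. Among the 26 members past the filter within each population on its own, 12 were higher in DETCs and 4 lower, against 17.7% and 19.0% of the 11919 such genes, and their median difference was 0.82. The plot of baseline differences by gene shows the members in order of their roles.

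**Figure D1:**
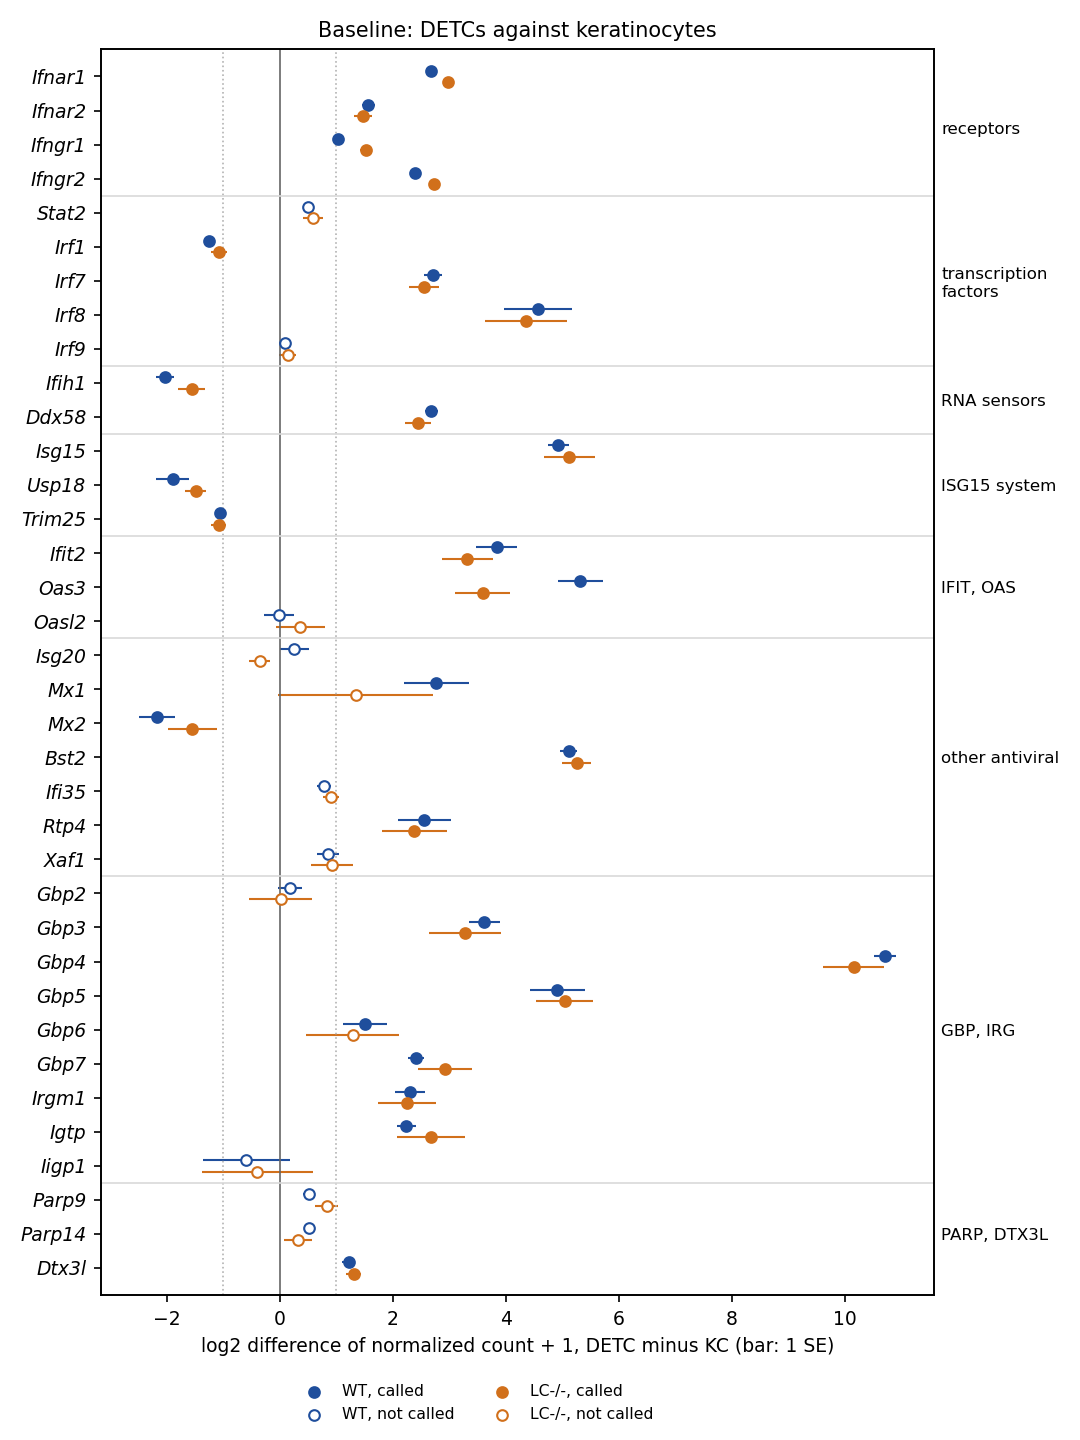
Log2 difference of the normalized count plus 1, DETC minus KC, for the 36 tested members in WT (blue) and LC-/- mice (orange), with bars of 1 SE; filled points were called, open points were not, and dotted lines mark a 2-fold change. Most points lie to the right of 0 with Gbp4 farthest at 10.7 in WT mice, while Irf1, Ifih1, Usp18, Trim25 and Mx2 lie left of the lower line in both genotypes.

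All 4 receptor chains were higher in DETCs. Ifnar1 (chr16:91485238-91507441, plus strand), the signalling chain for type I interferon, was at 457, 441 and 452 normalized counts in WT KCs and 2929, 2872 and 2894 in WT DETCs. The populations were far apart, with a log2 difference of 2.68 (SE 0.0607, adjusted p = 5.54e-10 by limma). Ifnar2 (chr16:91372783-91405589, plus strand), its ligand-binding partner, was at 163, 160 and 193 in WT KCs and 476, 494 and 560 in WT DETCs, a log2 difference of 1.57 (SE 0.112, adjusted p = 9.54e-07). Ifngr2 (chr16:91547072-91565623, plus strand), the accessory chain for interferon gamma, was at 399, 472 and 460 in WT KCs and 2465, 2334 and 2214 in WT DETCs, a log2 difference of 2.40 (SE 0.0841, adjusted p = 7.24e-09). Ifngr1 (chr10:19591949-19610229, plus strand), which binds interferon gamma, was closest between the populations. It was at 2475, 2157 and 2608 in WT KCs and 4661, 5226 and 4860 in WT DETCs, a log2 difference of 1.03 (SE 0.0870, adjusted p = 3.29e-06). The difference of Ifngr1 fell under 2-fold with edgeR (0.97), with values scaled to total reads (0.81), with quantile normalization (0.76), without the WT KC library W2 (0.95) and without the WT DETC library W2 (0.98).

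**Figure D2:**
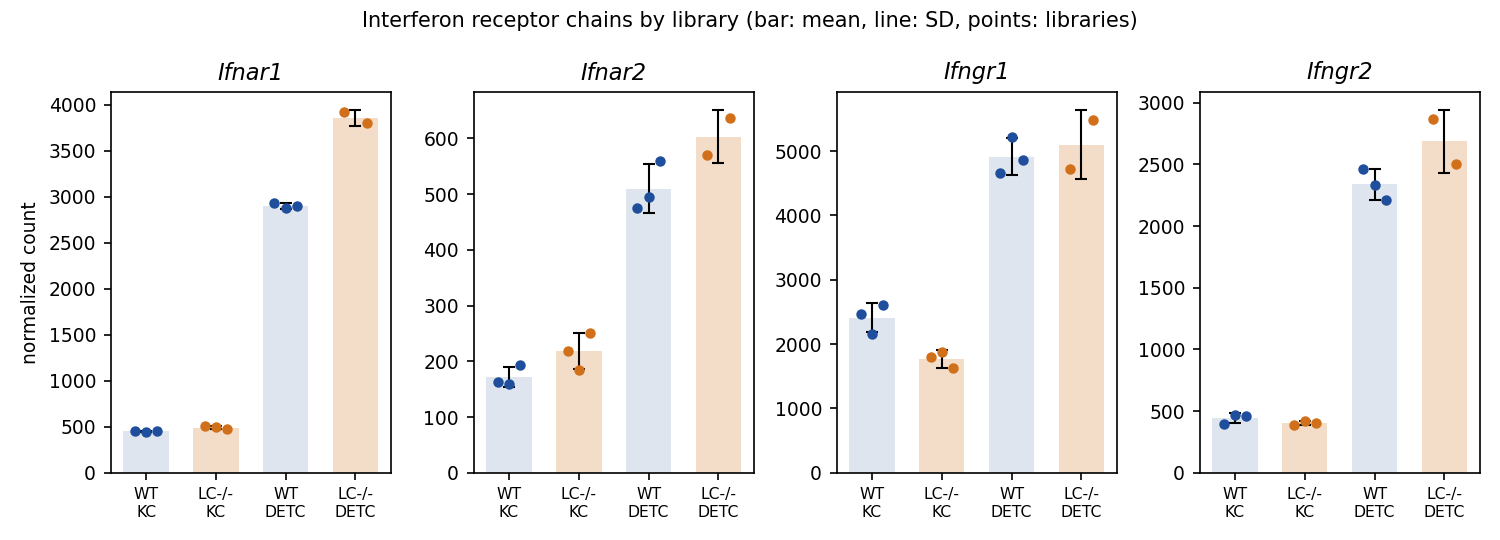
Normalized counts of the 4 receptor chains by group; bars are means from 0, lines are SDs and points are libraries, blue for WT and orange for LC-/-. DETC libraries lie above all KC libraries for each chain, and for Ifnar1 the LC-/- DETC libraries (3915 and 3796) lie above the WT ones (2872 to 2929).

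Per kilobase of exons, merged over the transcripts of a gene, the chains were unequal within each population. In WT KCs the normalized count per kilobase was 848 ± 81.3 (SD, n = 3) for Ifngr1, 118 ± 10.5 for Ifngr2 and 75.8 ± 1.34 for Ifnar1. The level of Ifngr1 per kilobase was second among the members only to Irf1 (1237 ± 133), followed by Trim25 (248 ± 16.9). In WT DETCs Ifngr1 stood first at 1727 per kilobase, followed by Bst2 (1309) and Isg15 (851). The 3 libraries of Ifngr1 (1637 to 1836) did not overlap those of Bst2 (1156 to 1512), which did not overlap those of Isg15 (762 to 977).

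The guanylate-binding proteins (GBPs) and immunity-related GTPases (IRGs), which act on the vacuoles of intracellular pathogens and are well-known targets of interferon gamma, were called higher in DETCs for 7 of 9 genes and lower for none. Of these 7, Gbp3, Gbp4, Gbp5 and Gbp6 had passed the filter through DETCs alone, and among the 5 genes of the group past the filter within each population 3 were called (Gbp7, Irgm1 and Igtp), against 17.7% of all such genes higher. Gbp4 (chr5:105115767-105139586, minus strand) had 0 reads in all 3 WT KC libraries and 1866, 1647 and 1566 normalized counts in WT DETCs. Against 3 reads per library it was at least 601-fold higher in DETCs. Gbp5 (chr3:142493978-142522344, plus strand) was at 2.05, 0 and 0 in WT KCs, which is 2 reads, and at 53.5, 30.5 and 47.6 in WT DETCs. The ratio of Gbp5 reads at equal scaling was 68.7, with a 95% Clopper-Pearson interval of 18.6 to 573 that covers counting error only. Gbp3, Gbp7, Irgm1, Igtp and Gbp6 were 2.84-fold (Gbp6) to 12.3-fold (Gbp3) higher on the scale of counts plus 1. Gbp2 and Iigp1 were not called. Iigp1 ranged from 7.17 to 92.8 among the WT KC libraries, and from 8.75 to 19.8 in WT DETCs. GBP genes are near copies of each other in clusters on chromosomes 3 and 5, and how reads shared between them were counted is not given in the sources used here, so values of single GBPs are uncertain.

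Among antiviral effectors the largest differences were again towards DETCs. Isg15 was at 17.4, 17.6 and 25.9 normalized counts in WT KCs and 576, 739 and 615 in WT DETCs, a log2 difference of 4.93 (SE 0.187, adjusted p = 1.20e-08 by limma). Bst2, whose product tethers budding virions to the membrane, was at 33.8, 38.0 and 27.7 in WT KCs and 1044, 1365 and 1137 in WT DETCs, a log2 difference of 5.12 (SE 0.151, adjusted p = 2.63e-09). Both genes stood above 500 in every WT DETC library and below 40 in every WT KC library. Oas3, which senses double-stranded RNA to activate RNase L, was at 3.07, 0.928 and 0.864 in WT KCs and 68.7, 132 and 100.2 in WT DETCs. Its 5 KC reads gave a ratio of 66.3 with an interval of 28.1 to 206. Ifit2 (3.84), Mx1 (2.77), Rtp4 (2.55) and the RNA sensor Ddx58, which encodes RIG-I (2.69), were also called higher, with their log2 differences in parentheses. Of the transcription factors, Irf8 (4.57) and Irf7 (2.71), the latter an amplifier of type I interferon production, were called higher. The ADP-ribosylation partners Parp9 (0.51) and Parp14 (0.52) had adjusted p-values of 0.00143 and 0.000324 but under 2-fold differences, as had Stat2 (0.50), Ifi35 (0.78) and Xaf1 (0.86). Dtx3l, the ubiquitin ligase that binds PARP9, was called at 1.22. The gene spans of Parp9 and Dtx3l overlap on opposite strands of chromosome 16.

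For 5 members the call ran the other way, and the 2 sensors of viral RNA went in opposite directions. Ifih1, which encodes MDA5, was at 422, 418 and 373 in WT KCs and 87.3, 125 and 85.6 in WT DETCs, a fall of 2.03 on the log2 scale (SE 0.158, adjusted p = 1.79e-06 by limma). Irf1 was at 4586, 5526 and 4644 in WT KCs and 1863, 2127 and 2188 in WT DETCs, a log2 difference of -1.25 (SE 0.0956, adjusted p = 1.54e-06). Usp18, which removes ISG15 from proteins and dampens type I interferon signalling, was at 229, 235 and 124 in WT KCs and 56.7, 63.5 and 34.0 in WT DETCs (log2 difference -1.90, SE 0.299, adjusted p = 0.000272). Trim25, a ubiquitin ligase that acts with RIG-I, was at 1535, 1344 and 1410 against 682, 662 and 702 (-1.07, SE 0.0731, adjusted p = 7.20e-07). Mx2, a GTPase of the antiviral Mx family, was at 19.5, 27.8 and 22.5 against 3.27, 4.13 and 5.83 (-2.18, SE 0.318, adjusted p = 0.000164). For all 5 genes every KC library was above every DETC library. Their calls in these same libraries make that likely, so it is no separate support. In percent of their WT KC mean, the DETC levels were 19.0% for Mx2, 24.6% for Ifih1, 26.3% for Usp18, 41.9% for Irf1 and 47.7% for Trim25, beside the median of 16.3% for the 15 KC markers. The part of KC RNA in these DETC values was not tested. Isg15 and its deconjugating enzyme Usp18 thus differed in opposite directions between the populations.

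The 7 members that did not pass the filter were Ifit1, Ifit3, Oas1a, Oas2, Oasl1, Rsad2 and Ifi44, and the highest of their values was 18.8 normalized counts (Ifit1 in the DETC library L3). Rsad2, which encodes viperin, lay between 1.86 and 17.7, and Oas2 had at most 1.11. Oasl1 had 0 reads in all 6 KC libraries.

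In LC-/- mice the baseline was similar in its calls, with 19 of 36 members higher in DETCs and 5 lower, against 25.2% and 20.3% of all genes. The 36 include the members that passed the filter through a single population. Among the 26 past it within each population, 12 were higher and 4 lower, and the share of all such genes was not computed for LC-/- mice. The 19 and 5 of the 36 were also called, in the same direction, in WT mice, while Mx1 and Gbp6 were called in WT mice alone. Their differences in LC-/- mice were 1.34 (SE 1.38, adjusted p = 0.411) and 1.29 (SE 0.823, adjusted p = 0.201). Gbp4 (2 reads in LC-/- KCs against 1511 and 1843 normalized counts in DETCs, a ratio of 2367 with a counting interval of 654.8 to 19560), Bst2 (log2 difference 5.25) and Isg15 (5.13) had the largest differences in LC-/- mice. The ratio of Oas3 was 13.1 (interval 8.16 to 22.4) in LC-/- mice, from 19 KC reads, beside 66.3 in WT mice, and its interaction was not called (adjusted p = 0.335 by limma). Trim25 (-0.96) and Mx2 (adjusted p = 0.0588) lost their call without the KC library L3, and Irf1 (-0.88) lost it without the DETC library L2. Mx2 also lost it without the DETC library L3 (adjusted p = 0.0854), with DESeq2 (0.0803), with no filter (0.0841) and, falling under 2-fold, with a pseudocount of 8 (-0.81).

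Of the ligands listed, only Ifng passed the filter. It had 0 reads in all 6 KC libraries and was at 461, 1282 and 734 normalized counts in WT DETCs and 372 and 1717 in LC-/- DETCs. Against 3 reads per library this was at least 293-fold above KCs in WT and 329-fold in LC-/- mice. Ifnk, an interferon of KCs, was at 4.32 to 14.3 in KC libraries, and Ifnb1, Ifne, Ifnz, Ifnl2 and Ifnl3 had 0 reads everywhere. Ifna2 and Ifna4 had 1 read each. Of 13 signalling genes listed, 5 were higher in WT DETCs and 2 lower. Jak1 (1.16), Tyk2 (1.21), Socs1 (3.06) and Il10rb (1.79) were among those higher, and Ifnlr1 (-2.53), the ligand-binding chain for interferon lambda, and Irf5 (-1.07) were lower. Jak1 (0.94) and Tyk2 (0.99) fell under 2-fold with values scaled to total reads. Jak2, a kinase of the interferon gamma receptor, was not called (0.38, adjusted p = 0.00994). Of 9 tested genes of upstream sensing 4 were higher and 1 lower, and of 39 other tested interferon-stimulated genes 23 were higher and 6 lower, beside 24.1% higher and 20.6% lower among all genes. The largest of these was Gbp8 (9.14), and Ifitm3 (-2.45) was lowest. Gbp8 had 0 reads in all 6 KC libraries and so passed the filter through DETCs alone, as did Ifng. Such genes favour a difference towards DETCs. For these lists, counts of genes past the filter within each population were not made.

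In KCs no member passed the test between LC-/- and WT mice. Limma called 0 of 36 members higher and 0 lower, where 5.37% of all genes were called higher and 1.85% lower, and 5 members had an unadjusted p under 0.05 (Ifngr1, Ifnar1, Mx2, Oas3 and Isg20). The median log2 difference, LC-/- minus WT, was 0.05 over the members and -0.01 over all genes. Ifngr1 came closest to a call. It was at 1798, 1885 and 1625 in LC-/- KCs, all below the WT libraries at 2157 to 2608, a log2 difference of -0.45 (SE 0.0926, 95% interval -0.68 to -0.21, adjusted p = 0.0532). edgeR (adjusted p = 0.00610) and DESeq2 (adjusted p = 0.000281) on the recovered reads did call Ifngr1 lower. Isg20, an exonuclease that degrades viral RNA, was at 111, 76.1 and 91.6 in WT KCs and 143, 161 and 198 in LC-/- KCs (0.85, SE 0.191, adjusted p = 0.0632), and both count tests called it higher (adjusted p = 0.00589 and 0.000533).

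Oas3 had the largest difference in KCs (1.56, adjusted p = 0.12 by limma), from 3.07, 0.928 and 0.864 in WT and 8.81, 3.05 and 8.41 in LC-/- KCs. Among members with a mean of at least 10 in KCs, the largest other differences were those of Iigp1 and Mx2, neither of them called. Iigp1 was at 7.17, 92.8 and 13.8 in WT KCs and 25.3, 20.4 and 173 in LC-/- KCs, a log2 difference of 1.04 (SE 1.25, adjusted p = 0.645). Mx2 was at 19.5, 27.8 and 22.5 against 9.92, 12.2 and 16.8 (-0.81, SE 0.235, adjusted p = 0.106). The groups of Iigp1 overlapped widely, while those of Mx2 did not. The interval of the difference reached from -2.12 to 4.19 for Iigp1 and from -1.37 to 1.56 for Igtp, which takes in changes of over 2-fold in both directions. It was narrower for Irf9 (-0.30 to 0.30) and for Ifnar1 (0.02 to 0.23), whose difference of 0.12 became -0.01 with values scaled to total reads.

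In DETCs a single member was called, against 3.13% of all genes called higher and 0.43% called lower. Ifnar1 was at 2929, 2872 and 2894 in WT and 3915 and 3796 in LC-/- DETCs, a log2 difference of 0.41 (SE 0.0781, adjusted p = 0.0340 by limma), or 1.33-fold. Both LC-/- libraries lay above all 3 WT libraries. As Ifnar1 was called in these same libraries, this is no separate support. edgeR (adjusted p = 0.0460) and DESeq2 (0.000784) also called Ifnar1. The call was lost with values scaled to total reads (0.21, adjusted p = 0.133), with quantile normalization (0.22, adjusted p = 0.177), without a mean-variance trend (adjusted p = 0.189), and without W2 (0.133), W3 (0.125), L2 (0.187) or L3 (0.0757). Ifnar2 (570 and 637), Ifngr2 (2865 and 2507) and Ifngr1 (4723 and 5481) had log2 differences of 0.24, 0.20 and 0.05 and were not called.

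The other members did not pass the test in DETCs, and 5 had an unadjusted p under 0.05 with Ifnar1 among them. Irgm1 (866 and 936 against 682, 748 and 749), Igtp (531 and 848 against 426, 531 and 433), Stat2 and Isg15 were those nearest, with adjusted p-values of 0.127 to 0.257. Mx1 had the largest difference by size (-1.68, SE 1.21, adjusted p = 0.504), from 12.0, 17.3 and 21.4 in WT and 0 and 28.7 in LC-/- DETCs. The LC-/- libraries of Mx1 lay on either side of the WT ones, and without L3 the 1 remaining LC-/- library, at 0 reads, gave a call (-4.13, adjusted p = 0.0186) in a fit whose spread came from the WT libraries alone. Iigp1 was at 15.3, 19.8 and 8.75 against 18.4 and 61.9 (1.23, SE 0.560, adjusted p = 0.284), and Oasl2, an oligoadenylate synthetase-like protein, at 45.8, 87.5 and 67.1 against 90.3 and 115 (0.65, SE 0.293, adjusted p = 0.282). Of the LC-/- DETC libraries, L2 held the higher sum of the 15 KC markers (154100 normalized counts against 88190 in L3) and the lower sum of the 6 αβ T cell markers (3921 against 13730). The part of this in the members' values was not tested.

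**Figure D3:**
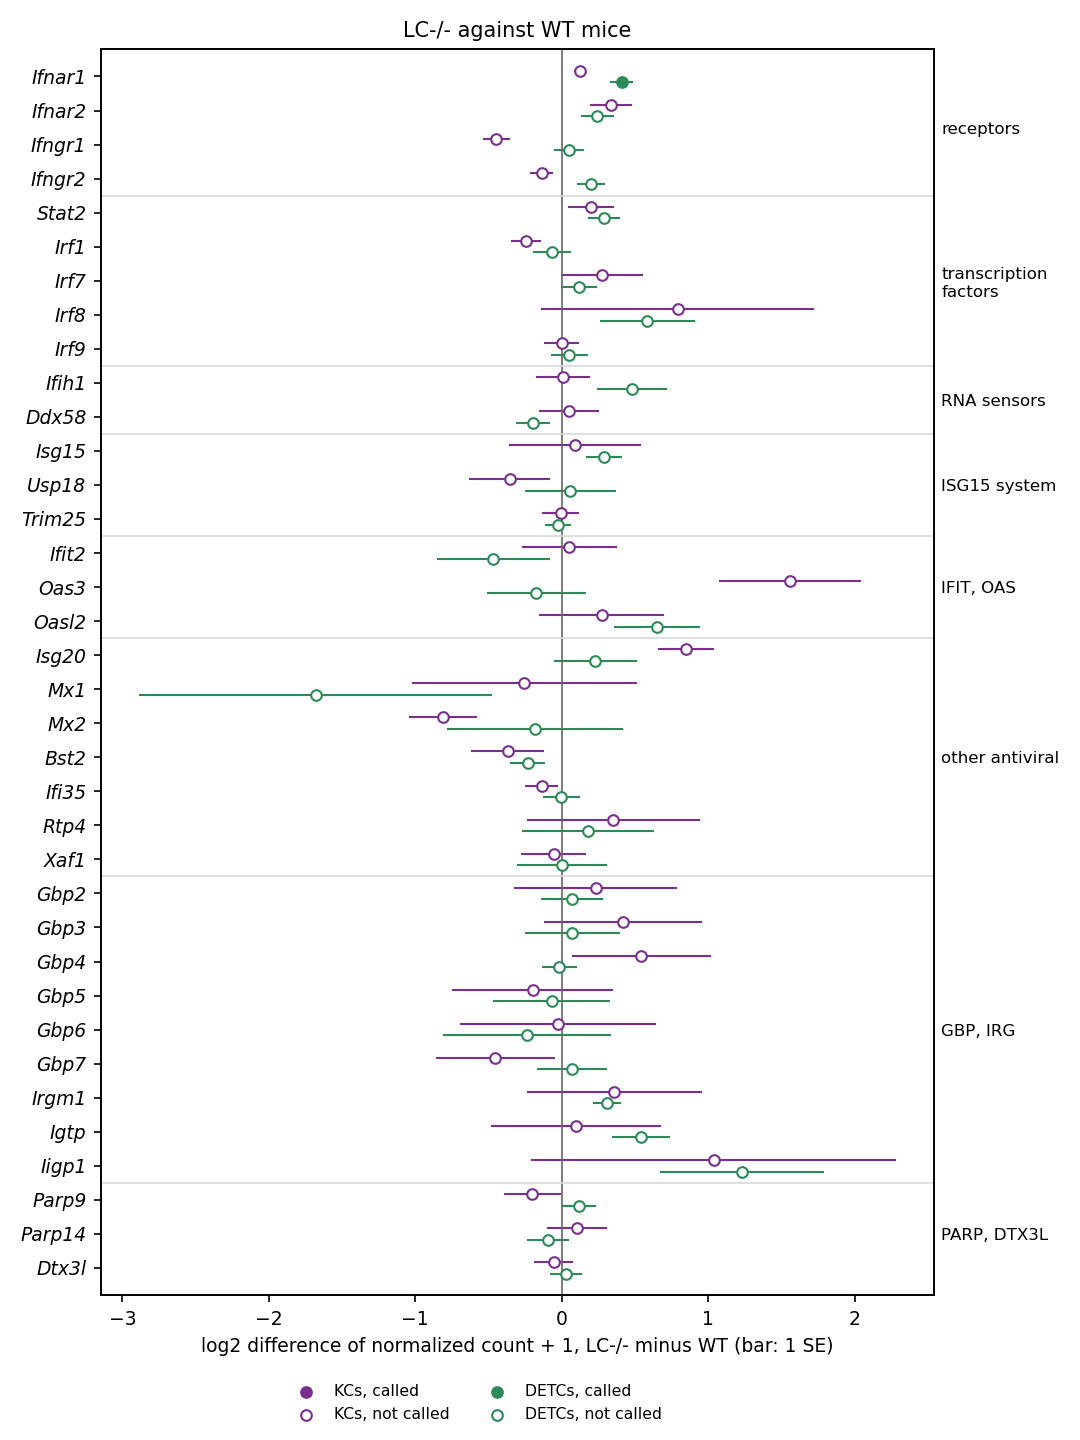
Log2 difference of the normalized count plus 1, LC-/- minus WT, for the 36 tested members in KCs (purple) and DETCs (green), with bars of 1 SE; filled points were called, open points were not. Ifnar1 in DETCs (0.41) is the only filled point, and the GBP and IRG genes have wide bars in KCs, up to an SE of 1.25 for Iigp1.

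The difference of the LC-/- change between DETCs and KCs was tested as an interaction over all 11 libraries. It was called for 0 of 36 members by limma, against 0.798% of all genes, and 4 members had an unadjusted p under 0.05: Ifngr1, Ifnar1, Ifngr2 and Oas3. edgeR called 0 members and DESeq2 called Ifngr1 (0.50, adjusted p = 0.0446). With limma the Ifngr1 interaction was 0.50 (95% interval 0.19 to 0.80, adjusted p = 0.160). So the call of Ifnar1 in DETCs and not in KCs was not itself a difference that passed the test (0.29, adjusted p = 0.237).

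Among the 62 tested genes of the pathway lists, 3 were higher and 1 lower in LC-/- KCs, shares near the 5.37% and 1.85% of all genes. In KCs 18 of these genes had an unadjusted p under 0.05 by limma, edgeR called 7 higher and 3 lower, and DESeq2 called 6 higher and 3 lower. Of all 14419 genes in KCs, edgeR called 1192 higher and 591 lower, and DESeq2 1215 and 537. In DETCs 0 were called by limma, where 15 had an unadjusted p under 0.05. There edgeR also called 0 and DESeq2 called 3 (Trafd1, Socs3 and Irgm2). Of all genes in DETCs, edgeR called 410 higher and 73 lower, and DESeq2 868 and 211. Jak2 was at 2257, 2360 and 2866 normalized counts in WT KCs and 4409, 3634 and 4859 in LC-/- KCs (0.78, SE 0.143, adjusted p = 0.0428). Tbk1, the kinase that activates IRF3, was at 516, 541 and 628 against 796, 759 and 815 (0.50, SE 0.0828, adjusted p = 0.0362). Helz2, an interferon-inducible helicase, was at 490, 445 and 508 against 787, 803 and 971 (0.82, SE 0.101, adjusted p = 0.0230). Mavs, the adaptor downstream of RIG-I and MDA5, was lower at 184, 208 and 182 against 274, 263 and 245 (-0.45, SE 0.0826, adjusted p = 0.0436). These 4 genes were named for their calls in these same libraries. That their WT and LC-/- libraries did not overlap is therefore no separate support. Leaving out single libraries left their log2 differences at 0.69 to 0.90 for Jak2 and 0.44 to 0.58 for Tbk1. The ranges were 0.72 to 0.88 for Helz2 and -0.51 to -0.41 for Mavs. The calls were lost without any single library except W3 for Tbk1 and L2 for the others. With 1 library fewer the calls among all genes also fell, from 775 higher and 267 lower to 5 and 0 without L1 and to 552 and 169 without L2. By limma with no filter on low counts, Jak2 (adjusted p = 0.0982), Tbk1 (0.0809), Helz2 (0.0514) and Mavs (0.0755) were not called. Jak2 also lost its call with quantile normalization (0.0511) and without a trend (0.0535). Mavs lost it with quantile normalization (0.0629) and Tbk1 with scaling to total reads (0.053). Jak1 (0.25, adjusted p = 0.0782) and Tyk2 (-0.38, adjusted p = 0.113) were not called in KCs.

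Many members shared an order of the KC libraries that cut across genotype, a pattern noticed after the values were seen. L3 was the highest of the 3 LC-/- KC libraries for 28 of 36 members, against 34.1% of all tested genes, and W2 the highest of the WT KC libraries for 21 of 36, against 29.7%. Over the 6 KC libraries, L3 was highest and W2 next for 14 of 36 members, against 1.97% of all tested genes. Of the 9 GBP and IRG genes 7 had this order (Gbp2, Gbp3, Gbp6, Gbp7, Irgm1, Igtp and Iigp1), and of the 4 receptor chains 0 had it. For some of the 14 members the order rests on few reads and is uncertain. Gbp3 had 5 reads in W2 and 5 in W3, and Ifit2 had 3 in L3, 2 in W2 and 2 in W3. Rtp4 had 7 in L3, 4 in W2 and 3 in W3. Irgm1, a regulator of the other IRGs, was at 92.2, 229 and 149 in W1, W2 and W3 and at 109, 149 and 412 in L1, L2 and L3. Igtp was at 82.0, 122 and 89.9 in WT and 66.1, 66.2 and 252 in LC-/- KCs. Gbp2 was at 159, 282 and 184 in WT and 196, 131 and 521 in LC-/- KCs. L3 thus stood well above every other KC library for these 3 genes. Without L3 the LC-/- minus WT difference changed from 0.36 to -0.20 for Irgm1, from 0.10 to -0.54 for Igtp and from 0.23 to -0.33 for Gbp2, none of them called.

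In the DETC libraries Ifng was highest in L3 (1717), then W2 (1282), W3 (734), W1 (461) and L2 (372). Of the 6 αβ T cell markers 4 had the same order over the 5 DETC libraries (Cd8a, Cd8b1, Trac and Cd28), as had the sum of all 6, from 13730 in L3 to 3921 in L2. Cd4 was highest in W2 (755) before L3 (630), and Cd5 was higher in W1 (670) than in W3 (419). In the DETC libraries L3 was above L2 for 30 of 36 members and for 9 of 9 GBP and IRG genes, against 47.0% of all tested genes. Among WT DETC libraries W2 was highest for 17 of 36 members, against 31.3% of all tested genes, but for only 3 of 9 GBP and IRG genes. With 5 numbers shared between the populations, no correlation is given, and it is not known that equal numbers mean the same mouse. Whether αβ T cells or interferon gamma had a part in the KC values was not tested.

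**Figure D4:**
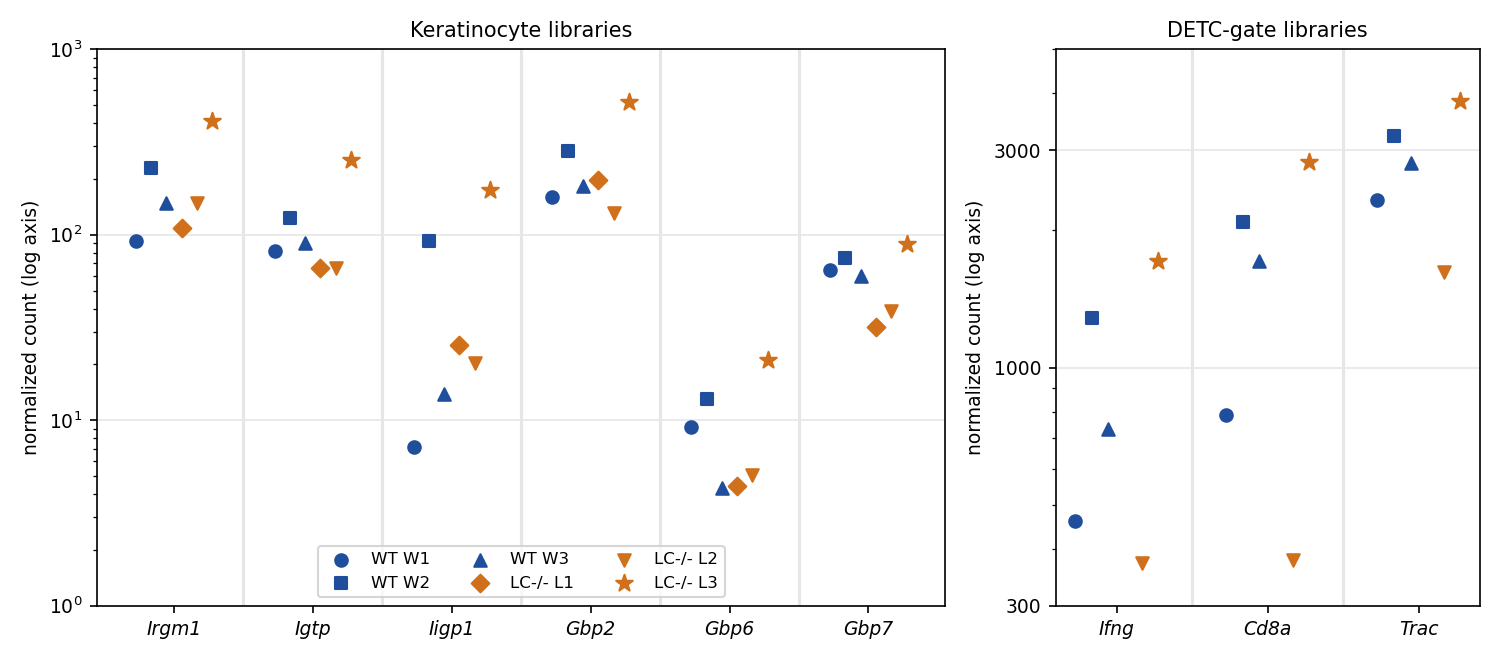
Normalized counts on log axes of 6 GBP and IRG genes in the 6 KC libraries (left) and of Ifng, Cd8a and Trac in the 5 DETC libraries (right), with 1 symbol for each library number, blue for WT and orange for LC-/-. L3 (star) is highest and W2 (square) next for each of these genes, from 412 and 229 for Irgm1 in KCs to 1717 and 1282 for Ifng in DETCs. Only genes with this order are plotted. Gbp4, Gbp5 and the αβ T cell marker Cd4 lack it and are not shown.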

How the data were processed

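RNA of sorted KCs and DETCs was sequenced as poly-A libraries with paired reads. Per the study's methods, the authors removed adapters (cutadapt), aligned to GRCm38 (hisat2) and summed reads by gene (featureCounts). The deposited signal is the read count of a gene over a size factor that the authors set for the library by the median of ratios. Reads were recovered from the deposited values as multiples of a library's smallest step. Over the lower values, the only ones checked, the largest deviation from a whole number of reads was 3.68e-06. The deposited table is unfiltered. Keeping genes over 1 CPM in 2 or more libraries, the rule in the study's methods, left 14419 genes here. This is not the number of transcripts that the study states for its filter, so the gene set is not the authors' own. Symbols and positions came from GENCODE M21, which matched 52403 identifiers.

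Groups were taken from the labels. Comparisons used limma 3.58.1 (eBayes with trend, R 4.3.3) on log2 of the value plus 1 with Benjamini-Hochberg adjustment over all tested genes. For a gene at 0 reads, folds were set against 3 reads per library. Intervals on read ratios and this floor cover counting error only. edgeR 4.0.16 and DESeq2 1.42.0 were run on the recovered reads as alternatives, beside other pseudocounts, filters and scalings, and the omission of each library. The fits were tested on simulated data. P-values measure the spread between libraries. No replicate pair agreed within sampling noise.

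The members and lists were chosen with earlier results of these data known. Values per library are given for the receptors, for called members, and for the 3 members with the largest difference per genotype comparison at a mean of at least 10 and the 5 largest per direction at baseline. Pathway genes are named where called by genotype, and the ligands, Jak1, Jak2 and Tyk2 always. Another gene of this rule is not reported here. Genes outside this rule were named after their values were seen.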

Additional observations from a re-analysis of the deposited data

Results flagged for a closer look

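The LC-/- change was tested for a difference between DETCs and KCs by the interaction term over all 11 libraries. Limma called it for 2 of the 62 tested genes of the pathway lists, against 0.798% of all genes. Helz2 had an interaction of -0.738 on the log2 scale (adjusted p = 0.0452 by limma): it was 0.82 higher in LC-/- KCs and 0.08 higher in LC-/- DETCs (1385 and 1674 against 1469, 1409 and 1436). Socs3, which encodes an inhibitor of JAK-STAT signalling, had an interaction of 0.832 (adjusted p = 0.0473). It was at 9871, 10435 and 9202 in WT KCs and 6296, 8614 and 6522 in LC-/- KCs, and at 6939, 7740 and 7176 in WT DETCs and 9660 and 9010 in LC-/- DETCs. Neither change of Socs3 passed the test on its own (adjusted p = 0.104 in KCs and 0.0846 in DETCs). The interaction call of Socs3 was lost with edgeR (adjusted p = 0.0522). By limma it was lost with a pseudocount of 0.5 (0.0519), no filter (0.0677), scaling to total reads (0.0802) and no trend (0.141). That of Helz2 was lost by limma with no filter (0.0716) and no trend (0.144). The call of Helz2 was lost on leaving out any 1 library other than the KC library L2 and the DETC library L3, and that of Socs3 on leaving out any 1 library other than the KC library L2. Over all alternatives it ranged from 0.00147 to 0.159 for Helz2 and from 0.000549 to 0.156 for Socs3. No group had the 4 libraries that a test for a deviating library needs.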

How the results depend on the processing

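For members in KCs, the count called higher was 0 by limma, 1 with edgeR, 1 with DESeq2 and 2 in a fit over all 11 libraries (Isg20 and Oas3). The count called lower was 1 (Ifngr1) with edgeR, DESeq2, the fit over all 11 libraries, a pseudocount of 8, quantile normalization and scaling to total reads. It was also 1 with no filter on low values, where the gene was Ifit3 (1 read in each WT and 0 in each LC-/- KC library), and 0 otherwise. In DETCs the count higher was 1, and 0 without a trend, with quantile normalization and with scaling to total reads. Leaving out single libraries gave 0 to 1 members higher and 0 to 1 lower in DETCs, and 3 to 5 lower in DETCs than KCs of LC-/- mice. The interaction had 1 member called higher with DESeq2. In the fits with the number as a replicate block, 21 and 5 members were called in WT and 19 and 5 in LC-/- mice, and 0 by interaction, as without it. With the block Helz2 (adjusted p = 0.0596) and Socs3 (0.119) lost their interaction calls. Deviations of same-numbered libraries correlated at -0.0586 (W1) to 0.156 (L2), and 3 of 5 correlated best with their own number, so the numbers were not used as pairs. Scaling to total reads moved the median of all genes from -0.01 to -0.15 in KCs and from 0.02 to -0.18 in DETCs, and the counts of all genes higher and lower from 775 and 267 to 354 and 949 in KCs and from 452 and 62 to 216 and 537 in DETCs. With quantile normalization the DETC counts were 178 and 85. No called result changed sign. The cause of these changes was not tested. Depth limits Gbp4 in WT KCs (0 reads) to a lower bound and leaves wide counting intervals for members with few KC reads, such as Gbp5.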
